A study of Rattus norvegicus with 48 samples.

Results

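The comparison described here is that of FL kidneys with LF kidneys after 10 days of treatment. The members are the 4 arrays whose titles give strain FL and day 10 and the 4 whose titles give strain LF and day 10, 8 of the 48 arrays of the series, and every one of the 8797 probe sets was used. FL and LF are rat strains, and the labels give no more than these letters: no allele, transgene or parent strain is named, and it is not said what FL and LF share. The male rats, aged 12 weeks in the labels, received 100 mg of indole-3-carbinol per kg body weight per day by gavage for 10 days. Whole kidney RNA was put on whole-transcript arrays. Each group had 8 rats and 4 biological replicates, and the labels do not say if 1 array stands for 1 rat or for pooled rats. The p-values therefore rest on the spread between arrays within groups, taken over all 48 arrays. The same strains were compared after 7 days of treatment and on the vegetable oil carrier alone, called day 0 as in the labels, and the strains F and L, given the same treatment for 10 days, served for 1 further comparison, each with 4 arrays per group.

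Indole-3-carbinol comes from cabbage plants, and in the stomach it forms ligands of the aryl hydrocarbon receptor, a transcription factor that switches on Cyp1a1. The injured kidney tubule makes a set of proteins that are low in health. Havcr1 appears on damaged proximal tubule cells, Lcn2 is an iron-carrier-binding protein secreted by stressed tubule and immune cells, and Clu is a secreted chaperone. Interferons act through a different program. Their receptors activate Stat and Irf factors that bind the interferon-stimulated response element, and antiviral genes such as those of the Mx and Oas families follow. The angiotensin system raises blood pressure: angiotensinogen (Agt) is the precursor, Ace makes the active angiotensin II, and Agtr1a is its main receptor.

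Values are log2 array signals, and differences are FL minus LF, so a positive one means higher in FL. Each is given with its standard error from limma, over 4 arrays per group, and a result passed the threshold at an adjusted p under 0.05 over all probe sets. Array medians were 5.66 to 5.97 in FL and 5.89 to 6.04 in LF, and precision is limited by the number of arrays. FL replicate 4 stood apart. Its median of 5.66 and its SD over probe sets of 2.29 were the lowest of the 48 arrays, and where a list member or a gene picked by the naming rule was not past the threshold without it, that is said beside the gene. The tissue label was matched by Slc5a2, the glucose carrier of the proximal tubule, at 10.18 to 10.59 in FL and 9.80 to 10.05 in LF. In whole kidney RNA, fewer cells of a type and less RNA per cell cannot be told apart.

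At day 10, 219 of 8797 probe sets passed the threshold (2.49%), 61 higher in FL (0.693%) and 158 lower (1.80%). Of these, 194 carried 1 gene symbol. A difference of 2-fold or more was seen in 41 of the 219, 11 higher in FL and 30 lower. At an unadjusted p under 0.05 the count was 1144 of the 8797. The unadjusted counts of the lists below are to be read beside that share. The arrays of the strains did not overlap in 6.01% of all probe sets, higher in FL in 2.00% and lower in 4.01%, and of the 219 they did not overlap in 51 higher and 129 lower. The split by direction depended on the scaling. After a second quantile normalization there were 228 higher and 205 lower, with array medians subtracted 181 and 180, with the array spread as a covariate 238 and 218, and with array weights 147 and 144. The labels' array names tie each replicate number to its own set of 12 arrays. With that number as a block, 350 passed, 97 higher and 253 lower. Without FL replicate 4, 169 passed, 92 higher and 77 lower, and 131 of them were among the 219. A fit of the 8 arrays alone, which estimates the spread from 8 arrays in place of 48, left 32, of which 30 were among the 219. Without LF replicate 1 the count was 136. Among the genes picked by the naming rule, those that passed under each alternative tried, the fit of 8 arrays included, were Akr1c2, RT1-CE16, Ubd, Grik2, Tinag, Tgm2, Tmlhe, Ptgds, Lcn2, Timd2, Acsm5, Ces1e and Cyp2d2. Ifgga2l1 also passed under each, except that it was not tested when the dimmest probe sets were left out.

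**Figure D1:**
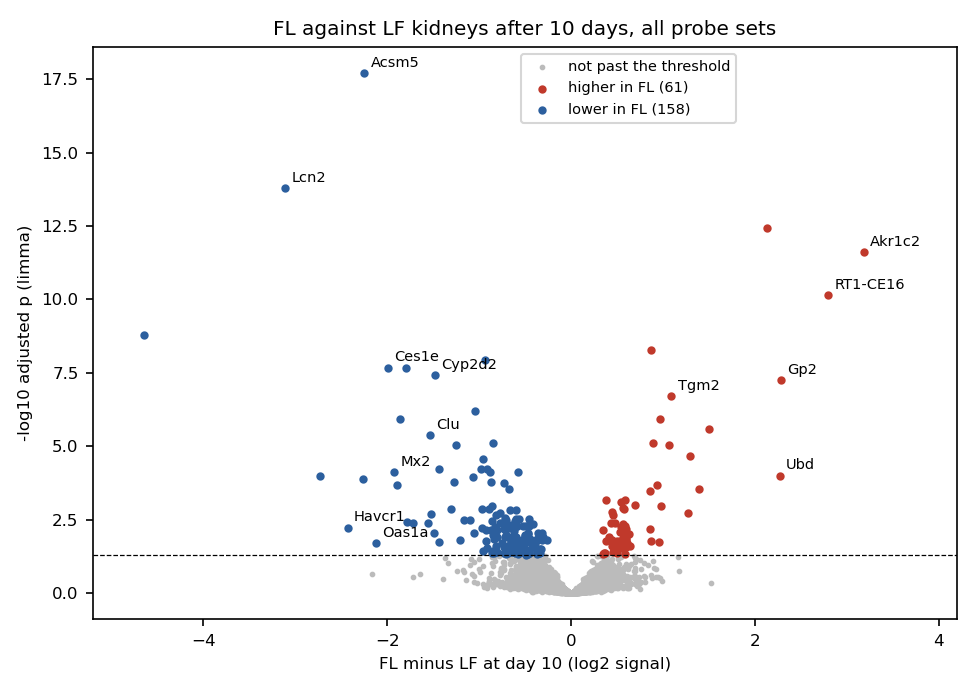
Each point is 1 of the 8797 probe sets, with the FL minus LF difference at day 10 (log2 signal) on the x axis and the limma adjusted p as -log10 on the y axis. The dashed line is the threshold of 0.05, with 61 probe sets above it on the side higher in FL and 158 on the side lower in FL, and named points are the genes of the text.

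Lcn2, Clu and Havcr1, markers of tubular injury, were lower in FL. Of 26 measured members of the tubular injury and repair list, 0 were higher in FL and 6 lower past the threshold (Lcn2, Clu, Cd44, Havcr1, S100a10 and Anxa1), against 0.693% and 1.80% of all probe sets. Of the 26 differences 19 were below 0, with a median of -0.23 against -0.04 over all probe sets. On the carrier 1 member was higher in FL and 1 lower (0.796% and 2.27% of all probe sets), and at day 7, 0 were higher and 3 lower (0.887% and 1.57% of all). Lcn2 read 4.76, 4.61, 4.83 and 4.70 in FL kidneys, against 8.10, 7.86, 7.51 and 7.88 in LF kidneys. No FL array came near an LF array, and the 4 FL values overlapped those of FL on the carrier (4.69 to 5.0). The difference was -3.11 ± 0.205, adjusted p = 1.66e-14, a signal lower by 8.65-fold in FL. It was -2.23 ± 0.205 at day 7 and -0.83 ± 0.205 on the carrier (adjusted p = 2.06e-10 and 0.0138). LF kidneys had 5.48 to 5.85 on the carrier and 6.45 to 7.52 at day 7, so that each LF array at day 10 except replicate 3 lay above all LF arrays of the earlier times. Lcn2 was also the only probe set of 8797 (0.0114%) whose change between carrier and day 10 differed between the strains past the threshold, by -2.28 ± 0.289, adjusted p = 1.02e-05. At an unadjusted p under 0.05, 299 probe sets differed in that test.

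Havcr1, the kidney injury molecule of the proximal tubule, read 4.64, 5.43, 8.03 and 5.76 in FL kidneys, against 9.32, 8.48, 7.32 and 8.47 in LF kidneys. FL replicate 3 was the highest of its group and LF replicate 3 the lowest of its own, and the groups overlapped through these 2 arrays. The difference was -2.43 ± 0.542, adjusted p = 0.00588, with a 95% interval of -3.53 to -1.34. On the carrier all 8 arrays lay close together (3.55 to 3.97 in FL, 3.83 to 3.95 in LF). The difference there was -0.14 ± 0.542 (adjusted p = 0.934), with the standard error taken over all 48 arrays. The difference in response was -2.29 ± 0.767 (adjusted p = 0.842), level with that of Lcn2 and with a larger standard error.

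Clu, the secreted chaperone, read 8.67, 8.91, 9.83 and 8.46 in FL kidneys, against 10.85, 10.58, 10.09 and 10.51 in LF kidneys. The groups did not overlap, and FL replicate 3 was again the highest of the FL arrays and LF replicate 3 the lowest of the LF arrays. The difference was -1.54 ± 0.212, adjusted p = 4.18e-06, against -0.51 ± 0.212 on the carrier (adjusted p = 0.224). Cd44, a hyaluronan receptor of regenerating tubules and white blood cells, read 5.62, 5.65, 6.40 and 5.28 in FL kidneys, against 6.96, 6.45, 6.30 and 6.57 in LF kidneys, a difference of -0.83 ± 0.184, adjusted p = 0.00545. FL replicate 3 reached into the LF range, and Cd44 was not past the threshold without FL replicate 4 (adjusted p = 0.0511) or LF replicate 1 (0.0518). S100a10, an annexin-binding protein, and Anxa1, an annexin that dampens inflammation, differed by -0.54 ± 0.133 and -0.66 ± 0.164 (adjusted p = 0.0161 and 0.0173). Without FL replicate 4 neither passed (adjusted p = 0.117 and 0.126), nor did they without LF replicate 1 (0.0667 and 0.147). Timp1, an inhibitor of matrix proteases, stood at -0.66 ± 0.198, adjusted p = 0.0648, and passed with the replicate number as a block (adjusted p = 0.0234). Taken over the whole injury list, the mean of the members' signals, each minus its own mean over all 48 arrays, lay between -0.227 and 0.261 in FL and between 0.372 and 0.628 in LF, so that the arrays of the strains did not overlap. On the carrier the same means were -0.409 to -0.117 in FL and -0.200 to 0.0633 in LF. These means include the 6 members past the threshold at day 10 and were not taken without them. Among those 6, Lcn2, Havcr1 and Clu had the differences furthest from 0 (-3.11, -2.43 and -1.54). The count of 6 lower members was 3 without LF replicate 1, and without FL replicate 4 it was 3 lower and 1 higher, with Lcn2, Clu and Havcr1 the 3 lower in both. The fit of the 8 arrays alone left 1, and array spread as a covariate gave 8 lower and 2 higher.

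**Figure D2:**
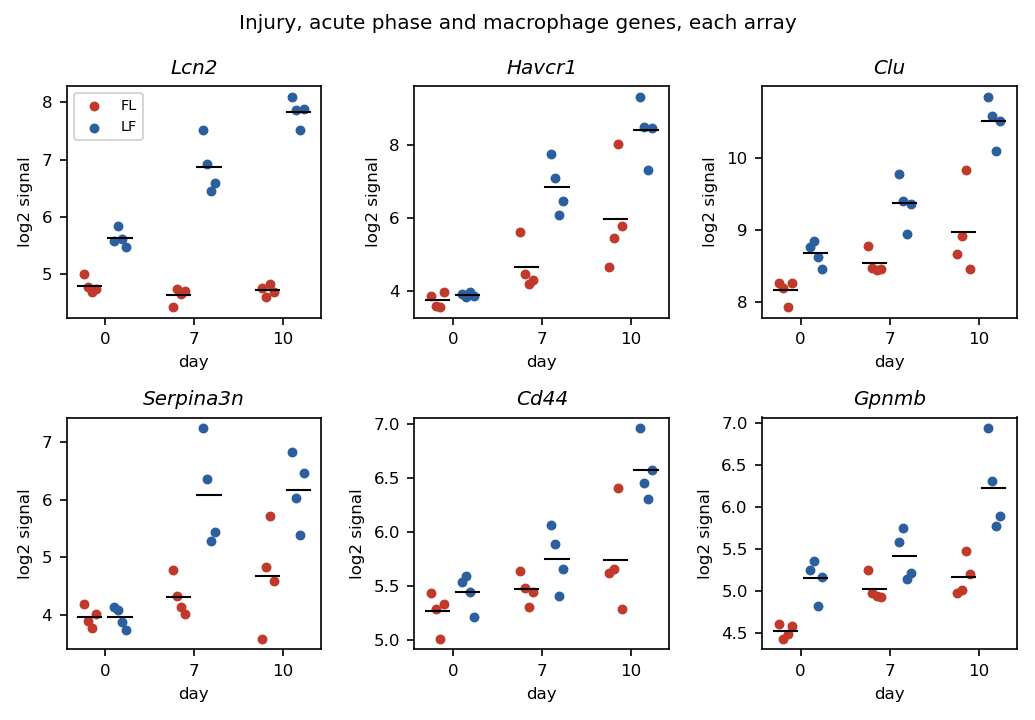
Log2 signal of 6 genes on each array (points) of FL (red, left) and LF (blue, right) at days 0, 7 and 10, with group means as black lines. The Lcn2 arrays of FL stay between 4.43 and 5.0 at all 3 times while those of LF lie at 7.51 to 8.10 on day 10, and for Havcr1, Serpina3n and Cd44 the strains overlap at day 10.

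Among 20 measured acute phase genes, 0 were higher in FL and 3 lower (0.693% and 1.80% of all probe sets). Of the 20 differences 13 were below 0, with a median of -0.049, close to the -0.04 over all probe sets. The mean signal of the list, scaled as above, was -0.157 to 0.388 in FL and 0.0734 to 0.332 in LF, overlapping ranges. Serpina3n, a protease inhibitor of the acute phase, read 3.59, 4.83, 5.71 and 4.58 in FL kidneys, against 6.82, 6.02, 5.39 and 6.46 in LF kidneys. The groups overlapped through replicate 3 of both strains. The difference was -1.5 ± 0.347, adjusted p = 0.00882, beside -1.77 ± 0.347 at day 7 and 0.01 ± 0.347 on the carrier (adjusted p = 0.00125 and 0.992). It was not past the threshold at day 10 without FL replicate 1 (adjusted p = 0.0747) or LF replicate 1 (0.0702). Cp, the copper-carrying ferroxidase, differed by -0.71 ± 0.197, adjusted p = 0.0398, and A2m, a broad protease trap at low signal on these arrays, by -0.26 ± 0.0635, adjusted p = 0.0155. Cp was past the threshold only without FL or LF replicate 3 when arrays were left out singly (adjusted p otherwise up to 0.248, without FL replicate 4), and A2m only without FL replicate 3 or LF replicates 2 or 3 (otherwise up to 0.0754, without LF replicate 4). Cp was also not past it with array weights (adjusted p = 0.103), nor A2m with array medians subtracted (0.372). Cyp24a1, the kidney enzyme that degrades active vitamin D, read 7.42, 7.29, 8.30 and 6.32 in FL kidneys, against 9.28, 9.51, 7.92 and 8.35 in LF kidneys. Its difference was -1.43 ± 0.362, adjusted p = 0.0184, and FL replicate 3 was above LF replicate 3. Without FL replicate 4 (adjusted p = 0.154), LF replicate 1 (0.113) or LF replicate 2 (0.12) Cyp24a1 did not pass.

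Among the listed white blood cell markers, Gpnmb and Mcpt1 were lower in FL past the threshold. Lilrb4, a receptor of myeloid cells outside these lists, was higher in FL, as given below. Of 19 measured macrophage and dendritic cell markers, 1 was lower (1.80% of all probe sets), Gpnmb, a glycoprotein of phagocytic macrophages. Of the 19 differences 16 were below 0, with a median of -0.15. On the carrier 5 of the 19 were lower in FL (2.27% of all), with a median of -0.36. Gpnmb read 4.97, 5.01, 5.47 and 5.20 in FL kidneys, against 6.94, 6.31, 5.77 and 5.89 in LF kidneys, groups that did not overlap, and differed by -1.06 ± 0.176, adjusted p = 0.000108. Of 9 granulocyte and mast cell markers 1 was lower, Mcpt1, a mast cell protease (-0.77 ± 0.166, adjusted p = 0.00424). Its signal was near the low end of the arrays, at 1.85 to 2.21 in FL and 2.34 to 3.22 in LF. The mast cell markers Kit and Ms4a2 did not pass (adjusted p = 0.5 and 0.599). Of 14 T and natural killer cell markers and 3 B cell markers none passed, with 2 and 1 at an unadjusted p under 0.05. The mean signal of the macrophage list, scaled as above, was -0.238 to 0.135 in FL and 0.111 to 0.357 in LF. On the carrier it was -0.283 to -0.0919 in FL and 0.0507 to 0.291 in LF, ranges that did not overlap. That of the T and natural killer cell list was -0.0812 to 0.0752 in FL and -0.158 to 0.0688 in LF, overlapping ranges. The part of macrophage number in the injury and interferon differences was not tested.

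Interferon-induced genes were the list with the most members past the threshold. All 24 measured members were below 0 in FL minus LF, from -2.12 to -0.17 with a median of -0.66, and 11 of the 24 were lower past the threshold, against 1.80% of all probe sets. These were the GTPases Mx1 and Mx2, the double-stranded RNA sensors Oas1a, Oas1b and Oas2 and their relative Oasl, the guanylate binding protein Gbp2, the GTPase Ifi47, the RNA-editing enzyme Adar, the virus tether Bst2 and Slfn4 of the Schlafen family. In 13 of the 24 the arrays of the strains did not overlap, against 4.01% of all probe sets. The promoters of 4 of the 11 are shown because they hold the letters of the core of the response element (GAAA, any 2 bases, then GAAA) on 1 of the strands, within the 300 bases from 250 before to 50 after the gene's start. They are RefSeq sequences of the rat assembly GRCr8, given 5' to 3' on the strand of the gene, with the matched bases in capitals. In Oas1a, Oas1b and Bst2 a pair of overlapping matches makes 1 run of 16 bases, and the run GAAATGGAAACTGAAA is the same in Oas1a and Oas1b. In Gbp2 the match lies on the opposite strand, so that its capitals read as the reverse complement. The first matched base lies 41 bases before the start in Oas1a, 59 in Oas1b, 131 in Bst2 and 31 in Gbp2.
Oas1a, chr12:41330216-41330515, plus strand: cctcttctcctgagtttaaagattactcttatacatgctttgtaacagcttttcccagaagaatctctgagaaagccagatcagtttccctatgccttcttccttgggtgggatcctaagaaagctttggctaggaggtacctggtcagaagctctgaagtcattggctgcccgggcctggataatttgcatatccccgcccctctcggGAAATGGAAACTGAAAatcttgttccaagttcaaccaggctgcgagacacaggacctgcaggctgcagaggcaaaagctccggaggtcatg
Oas1b, chr12:41395803-41396102, minus strand: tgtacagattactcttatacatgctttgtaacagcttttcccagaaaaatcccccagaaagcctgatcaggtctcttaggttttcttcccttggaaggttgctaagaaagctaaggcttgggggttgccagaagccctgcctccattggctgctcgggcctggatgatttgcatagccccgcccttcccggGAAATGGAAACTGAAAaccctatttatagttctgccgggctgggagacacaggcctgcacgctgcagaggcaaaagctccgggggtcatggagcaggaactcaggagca
Bst2, chr16:18254918-18255217, minus strand: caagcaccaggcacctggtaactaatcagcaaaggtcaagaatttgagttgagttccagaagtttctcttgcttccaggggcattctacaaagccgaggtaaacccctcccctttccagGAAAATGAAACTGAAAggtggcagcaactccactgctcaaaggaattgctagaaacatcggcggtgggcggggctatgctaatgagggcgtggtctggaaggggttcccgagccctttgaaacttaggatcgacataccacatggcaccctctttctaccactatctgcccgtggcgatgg
Gbp2, chr2:234005477-234005776, plus strand: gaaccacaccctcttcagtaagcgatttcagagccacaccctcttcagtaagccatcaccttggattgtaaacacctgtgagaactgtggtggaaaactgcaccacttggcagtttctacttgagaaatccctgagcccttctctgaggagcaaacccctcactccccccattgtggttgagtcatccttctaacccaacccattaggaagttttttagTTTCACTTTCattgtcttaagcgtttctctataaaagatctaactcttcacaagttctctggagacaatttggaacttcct
Of the 24 measured members, 20 had a promoter in the table, and 12 of the 20 (60%) held the motif. Among the members lower in FL past the threshold it was 4 of 8 (50%). Over all 33469 promoters of that length it was 1312 (3.92%), and over those of genes on the array 226 of 6234 (3.63%). A match describes the letters in this window and is not a measured binding site.

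Oas1a, whose sequence comes first above, read 6.05, 4.80, 4.75 and 3.16 in FL kidneys, against 6.38, 6.05, 7.86 and 6.96 in LF kidneys. The highest FL array was level with the lowest LF array, and the difference of -2.12 ± 0.541, adjusted p = 0.0195 had a 95% interval of -3.22 to -1.03. Without FL replicate 4 (adjusted p = 0.161), LF replicate 3 (0.109) or LF replicate 4 (0.057), and with array weights, it was not past the threshold. Oas1b, a close paralog, differed by -1.21 ± 0.301, adjusted p = 0.0161, with overlapping arrays. Whether probes of Oas1a and Oas1b bind each other's RNA was not tested.

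Mx2 read 5.99, 5.70, 5.84 and 4.70 in FL kidneys, against 6.95, 6.91, 8.25 and 7.83 in LF kidneys. The groups did not overlap, and FL replicate 4 was the lowest array and LF replicate 3 the highest. The difference was -1.93 ± 0.311, adjusted p = 7.6e-05, a signal lower by 3.8-fold in FL. Mx1 read 4.87, 4.63, 4.59 and 3.93 in FL kidneys, against 5.45, 5.42, 6.90 and 6.34 in LF kidneys, and differed by -1.52 ± 0.306, adjusted p = 0.00196. Slfn4 read 6.13, 5.78, 5.99 and 4.54 in FL kidneys, against 7.01, 6.74, 8.31 and 7.97 in LF kidneys, a difference of -1.90 ± 0.326, adjusted p = 0.000206. Each of these genes had its lowest value on FL replicate 4 and its highest on LF replicate 3. Oas2 (-0.86 ± 0.181), Oasl (-0.80 ± 0.194), Gbp2 (-0.87 ± 0.198), Ifi47 (-0.93 ± 0.234), Adar (-0.59 ± 0.129) and Bst2 (-0.56 ± 0.149) were lower by less than the Mx genes. Ifgga2l1, an interferon-inducible GTPase named among the largest differences, read 2.09, 2.08, 1.98 and 1.92 in FL kidneys, against 3.70, 3.30, 3.65 and 3.17 in LF kidneys, near the low end of the array signals in FL, with a difference of -1.44 ± 0.228, adjusted p = 6.01e-05. Without FL replicate 4, Adar (adjusted p = 0.0547), Gbp2 (0.0646), Oas1b (0.105), Ifi47 (0.154) and Bst2 (0.194) did not pass, nor did Oas1a, while Mx1, Mx2, Slfn4, Oas2 and Oasl did. Without LF replicate 3, Oasl did not pass (0.106). The count of 11 was 5 without FL replicate 4, 6 without LF replicate 3 and 0 in the fit of the 8 arrays alone, and 14 with the block. The sign was below 0 in all 24 members under each rescaling, and in 23 of 24 without FL replicate 4.

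The strain order of these genes was not constant in time. On the carrier the list median was -0.52 with 3 of 24 members lower in FL past the threshold (2.27% of all probe sets). At day 7 it was 0.24 with 2 higher and 0 lower (0.887% and 1.57% of all). The scaled mean signal of the list was -0.327 to 0.0282 in FL and 0.214 to 0.662 in LF on the carrier. At day 7 it was -0.244 to 0.0373 in FL and -0.620 to -0.431 in LF. At day 10 it was 0.208, 0.0653, -0.0185 and -0.584 on the FL arrays and 0.481, 0.339, 1.16 and 0.834 on the LF arrays, so that LF lay below FL at day 7 and above it at the other times. The test of FL minus LF at day 10 minus that at day 7, added after the values were seen, passed for 8 of 8797 probe sets (0.0909%), all below 0, and 6 of the 8 were members of this list. They were Slfn4 (-2.72 ± 0.462, adjusted p = 0.00322), Mx2 (-2.58 ± 0.439, adjusted p = 0.00322), Mx1, Bst2, Gbp2 and Ifi27. The other 2 were Ifgga2l1 (-1.58 ± 0.323, adjusted p = 0.0301) and a probe set with several symbols. Mx2 at day 7 had read 5.52, 5.82, 5.42 and 4.88 in FL kidneys, against 4.84, 4.72, 4.41 and 5.06 in LF kidneys, and FL replicate 4 was the 1 FL array below an LF array. Without FL replicate 4 of day 10 the count was 3, and likewise without LF replicate 3 of day 10 and without FL replicate 2, LF replicate 2 or LF replicate 3 of day 7. It was 16 without FL replicate 1 of day 10.

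**Figure D3:**
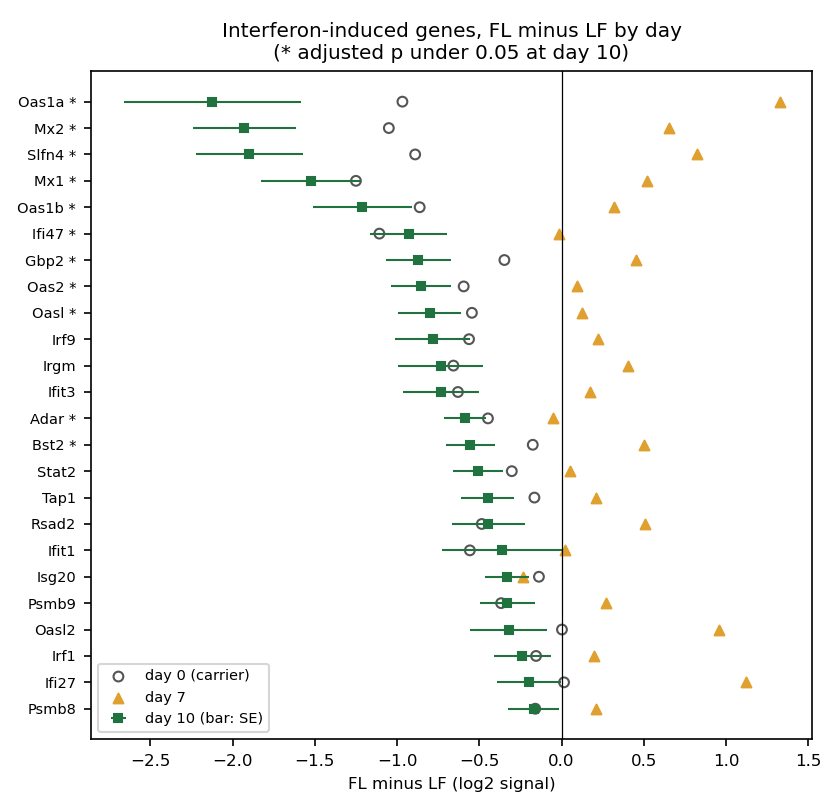
FL minus LF difference (log2 signal, x axis) of the 24 measured interferon-induced genes (y axis) on the carrier (open circles), at day 7 (triangles) and at day 10 (squares, with bars of 1 SE), with a star where day 10 passed the threshold. All 24 squares lie below 0, and most triangles lie above it.

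Ubd, a ubiquitin-like protein that cytokines also induce, was higher in FL. It read 6.67, 6.46, 7.46 and 6.70 in FL kidneys, against 4.61, 5.11, 4.33 and 4.16 in LF kidneys, groups that did not overlap, and was higher in FL by 2.27 ± 0.372, adjusted p = 0.000101. On the carrier the strains overlapped (4.18 to 6.73 in FL, 4.94 to 5.57 in LF). RT1-CE16, a class I histocompatibility gene of the rat, read 7.84, 7.72, 7.65 and 7.11 in FL kidneys, against 4.48, 5.24, 4.84 and 4.56 in LF kidneys, 2.80 ± 0.245 (adjusted p = 7.12e-11). It was the only 1 of 21 measured histocompatibility genes past the threshold, and its difference was 2.88 on the carrier and 2.80 at day 7. Of the 21, 8 had an unadjusted p under 0.05, against 1144 of all 8797 probe sets. Class I genes are highly alike and differ between rat strains, and whether the strains' sequences bind its probes equally was not tested. Apobec1, an RNA-editing deaminase, and Lilrb4, an inhibitory receptor of myeloid cells, were higher in FL by 1.40 ± 0.245 and 1.27 ± 0.254, and were so by 1.15 ± 0.245 and 1.35 ± 0.254 on the carrier. Of 31 measured chemokines and cytokines none passed, and 5 had an unadjusted p under 0.05.

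Ace, the enzyme that makes angiotensin II, read 6.64, 6.20, 6.15 and 5.77 in FL kidneys, against 6.98, 6.70, 6.77 and 6.75 in LF kidneys. All FL arrays lay below all LF arrays, FL replicate 1 by the smallest gap. The difference was -0.61 ± 0.158, adjusted p = 0.0232, and it was not past the threshold without FL replicate 3 (adjusted p = 0.0566), FL replicate 4 (0.172) or LF replicate 1 (0.117), or in the fit of the 8 arrays. Ace differed by -0.90 ± 0.158 on the carrier (adjusted p = 0.000207) and by -0.47 ± 0.158 at day 7 (adjusted p = 0.129). In the strains F and L the order was turned. Ace read 7.34, 6.97, 7.21 and 6.45 in F kidneys, against 5.87, 6.0, 5.71 and 6.12 in L kidneys, a difference F minus L of 1.07 ± 0.158, adjusted p = 1.59e-05.

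Around Ace on chromosome 10 the nearest 20 measured genes on each side were set beside it, in the gene order of RefSeq. Of these 40, 0 passed the threshold, and their differences ran from -0.26 to 0.70. The highest was Cacng5, a calcium channel subunit, at 0.70 ± 0.218, adjusted p = 0.0848. Cacng5 had passed on the carrier (1.32, adjusted p = 8.41e-05), and in F minus L it stood at -0.72 (adjusted p = 0.0515), of opposite sign. Hexim1, an inhibitor of transcription elongation, passed in F minus L (-0.49, adjusted p = 0.011) and stood at -0.15 in FL minus LF. Of the 636 measured genes of chromosome 10, 14 passed, 1 higher in FL and 13 lower (2.2%), and the shares on the other chromosomes ran from 1.12% on chromosome 9 to 5.62% on chromosome 16.

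Agt, the angiotensin precursor, read 7.72, 8.01, 7.77 and 7.53 in FL kidneys, against 8.36, 8.28, 8.17 and 8.20 in LF kidneys. The groups did not overlap, and the difference was -0.50 ± 0.142, adjusted p = 0.0486. Left out singly, every array of the 8 but FL replicate 2 took Agt out of the calls, with adjusted p up to 0.21 (without FL replicate 4). In F against L it was -1.08 ± 0.142, of the same sign. Agtr1a, the main angiotensin II receptor, read 7.07, 7.28, 6.79 and 6.13 in FL kidneys, against 6.98, 6.72, 6.96 and 6.84 in LF kidneys, overlapping groups with a difference of -0.06 ± 0.205, adjusted p = 0.935 and a 95% interval of -0.47 to 0.36. Of 14 measured genes of the angiotensin and kallikrein list, 0 were higher and 2 lower, Ace and Agt, against 0.693% and 1.80% of all probe sets. Klkb1, the plasma prekallikrein, was not a member of that list, so the count of 0 higher leaves it out. It was named among the largest differences and was higher in FL by 1.06 ± 0.153, adjusted p = 9.26e-06.

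**Figure D4:**
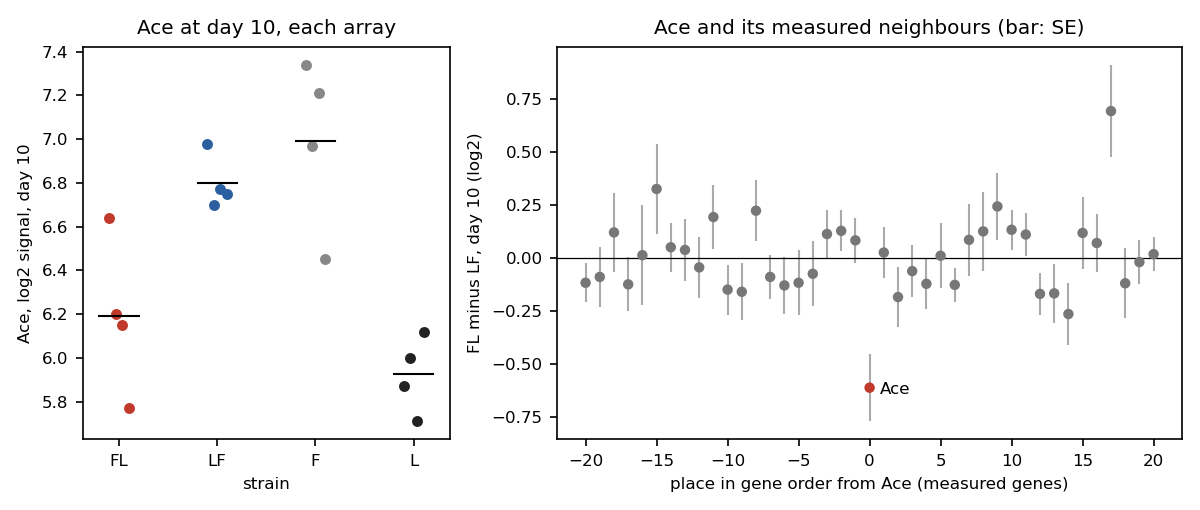
Left, log2 signal of Ace on each day 10 array (points) of the 4 strains with group means (lines), with FL at 5.77 to 6.64, LF at 6.70 to 6.98, F at 6.45 to 7.34 and L at 5.71 to 6.12. Right, FL minus LF difference (log2, bars of 1 SE) of Ace and of the 20 measured genes on each side of it in gene order, where Ace is the lowest point.

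The targets of the aryl hydrocarbon receptor did not pass the test. Cyp1a1, its best-known target, read 6.83, 6.79, 6.66 and 5.70 in FL kidneys, against 6.33, 5.91, 4.35 and 4.67 in LF kidneys. Except for FL replicate 4 the FL arrays lay above all LF arrays, and the difference of 1.18 ± 0.434, adjusted p = 0.176 had a 95% interval of 0.30 to 2.06. None of 8 measured targets passed, with 1 at an unadjusted p under 0.05. Of the 8 differences 7 were above 0, against 3650 of all 8797, with a median of 0.075 against -0.04 over all probe sets. The mean signal of the list, scaled as above, was 0.0221 to 0.336 in FL and -0.135 to 0.0971 in LF. These ranges overlapped through FL replicate 4, and the means include Cyp1a1 and were not taken without it. Hmox1, which degrades haem and is a target of the stress factor Nrf2, read 4.68, 5.89, 9.59 and 9.20 in FL kidneys, against 6.10, 5.97, 5.22 and 5.96 in LF kidneys. FL replicates 3 and 4 lay far above the other 6 arrays, and the difference was 1.53 ± 0.86, adjusted p = 0.466, not past the threshold. At day 7 it had read 5.17, 5.55, 5.03 and 4.99 in FL kidneys, against 10.19, 9.14, 10.57 and 5.87 in LF kidneys, a difference of -3.76 ± 0.86, adjusted p = 0.00756. The change of this strain difference between day 7 and day 10 was 5.28 ± 1.22, adjusted p = 0.0638. Of 17 measured members of the list of Nrf2 targets and glutathione enzymes 0 passed, with 1 at an unadjusted p under 0.05. Gclm stood at -0.20 ± 0.105 and Nqo1 at 0.22 ± 0.24. Gstm7, a glutathione transferase that passed and is given below, was not a member of that list.

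The largest differences in enzymes were already present on the carrier. Akr1c2, an aldo-keto reductase of steroid metabolism, read 5.53, 5.84, 6.05 and 5.91 in FL kidneys, against 2.61, 2.70, 2.56 and 2.72 in LF kidneys. The difference of 3.18 ± 0.249, adjusted p = 2.49e-12, a signal higher by 9.09-fold in FL, was the largest above 0 among probe sets with 1 symbol, and it was 3.35 ± 0.249 on the carrier and 2.59 ± 0.249 at day 7. Acsm5, a mitochondrial enzyme that activates medium-chain fatty acids, read 5.79, 5.43, 5.65 and 5.47 in FL kidneys, against 7.87, 7.72, 8.07 and 7.68 in LF kidneys. Its difference of -2.25 ± 0.112, adjusted p = 1.96e-18 compares with -2.57 ± 0.112 on the carrier. In both genes the groups lay far apart and each group's arrays lay close together.

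Ces1e, a carboxylesterase, read 5.0, 4.35, 4.16 and 3.63 in FL kidneys, against 6.64, 5.97, 6.20 and 6.29 in LF kidneys. The difference was -1.99 ± 0.216, adjusted p = 2.11e-08, beside -3.44 ± 0.216 on the carrier, and the change between them was 1.44 ± 0.306 (adjusted p = 0.126). Cyp2d2, a drug-metabolising cytochrome P450, read 8.94, 9.01, 8.66 and 8.30 in FL kidneys, against 10.32, 10.20, 10.21 and 10.09 in LF kidneys, -1.48 ± 0.165 (adjusted p = 3.8e-08). Of 29 measured cytochrome P450 enzymes, 0 were higher in FL and 4 lower (Cyp2d2, Cyp24a1, Cyp4f6 and Cyp4f1), against 0.693% and 1.80% of all probe sets, with a median of -0.05. Cyp4f6 and Cyp4f1, which hydroxylate fatty acids and eicosanoids, differed by -0.73 ± 0.124 and -0.45 ± 0.126. Cyp4f1 was past the threshold only without FL replicate 2, FL replicate 3 or LF replicate 4 when arrays were left out singly, with adjusted p otherwise up to 0.278 (without FL replicate 4). Of 28 measured aldo-keto reductases and conjugating enzymes, 1 was higher (Akr1c2) and 2 were lower (Acsm5 and Ces1e). Gstm7, a glutathione transferase, was higher in FL by 0.98 ± 0.188. Akr1c2, Ces1e, Cyp2d2 and Gstm7 belong to families of near-identical copies, and the sharing of probes between copies was not tested.

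Csad, Tmlhe, Slc25a21 and Acaa2, of mitochondrial and amino acid metabolism, were higher in FL, while the mitochondrial Acsm5 was lower, as given above. Csad, of taurine synthesis, read 9.81, 10.20, 9.59 and 9.44 in FL kidneys, against 8.75, 8.80, 8.95 and 8.96 in LF kidneys, higher by 0.90 ± 0.127, adjusted p = 7.64e-06. Tmlhe, of carnitine synthesis, was higher by 0.97 ± 0.126, and Slc25a21, a mitochondrial carrier of oxodicarboxylates, by 0.96 ± 0.242. Slc25a21 did not pass without FL replicate 1 (adjusted p = 0.0878), FL replicate 2 (0.0837) or LF replicate 1 (0.0518). Of 28 measured genes of fatty acid oxidation 17 had differences below 0 and 1 was higher past the threshold (0.693% of all probe sets), Acaa2, the last enzyme of the mitochondrial spiral, at 0.70 ± 0.132, adjusted p = 0.00101, against -0.15 ± 0.132 on the carrier (adjusted p = 0.631). Of 21 genes of lipid and sterol synthesis 1 was lower (1.80% of all probe sets), Sc5d, of cholesterol synthesis, at -0.71 ± 0.149. Of 29 respiratory chain genes 20 had differences below 0 and none passed, with 4 at an unadjusted p under 0.05 (1144 of all 8797 probe sets).

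Of 30 measured proximal tubule markers, 3 were higher in FL (Agxt2, Slc5a2 and Dpep1) and 1 was lower (Slc2a2), against 0.693% and 1.80% of all probe sets, with a median of 0.02. Slc5a2, the sodium-glucose carrier of the early proximal tubule, read 10.59, 10.41, 10.30 and 10.18 in FL kidneys, against 9.80, 10.05, 9.82 and 9.81 in LF kidneys, higher by 0.50 ± 0.141, adjusted p = 0.0441. On the carrier it was -0.28 ± 0.141 (adjusted p = 0.35), and the change between them was 0.78 ± 0.2 (adjusted p = 0.275). Slc2a2, the glucose carrier on the other face of these cells, was lower in FL at -0.60 ± 0.143, and at -1.06 ± 0.143 on the carrier. Slc2a2 was not past the threshold without FL replicate 4 (adjusted p = 0.103) or LF replicate 2 (0.0758). Dpep1, a brush border peptidase, was higher by 0.58 ± 0.167, adjusted p = 0.0479, and Agxt2, a mitochondrial aminotransferase, by 0.44 ± 0.0886, adjusted p = 0.00177. Slc5a2 was past the threshold without FL replicate 4 or LF replicate 2 and not without any other single array of the 8 (adjusted p up to 0.148), and Dpep1 was past it without FL replicate 4 alone (adjusted p otherwise up to 0.166).

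Of 22 measured genes of the loop and distal convoluted tubule 1 was lower in FL (1.80% of all probe sets), the potassium channel subunit Kcnj16 (-0.45 ± 0.128). Of 21 collecting duct genes 2 were lower, Scnn1a, a subunit of the epithelial sodium channel (-0.65 ± 0.156), and St6gal1, a sialyltransferase (-0.57 ± 0.149). Single arrays ended each of these 3 calls. Kcnj16 did not pass without FL replicates 3 or 4 or LF replicates 1 or 2 (adjusted p up to 0.243), and Scnn1a did not without FL replicate 4 (0.0881) or LF replicate 2 (0.0931). St6gal1 did not without FL replicates 3 or 4 or LF replicates 1, 2 or 3 (up to 0.224). Of 12 podocyte genes 1 was lower, Ptprq, a receptor phosphatase. Ptprq read 3.05, 3.17, 3.04 and 3.11 in FL kidneys, against 4.32, 3.51, 4.19 and 4.03 in LF kidneys, -0.92 ± 0.146 (adjusted p = 6.01e-05), against -1.76 ± 0.146 on the carrier. Of 13 smooth muscle, pericyte and fibroblast genes 2 were lower, Notch3 (-0.32 ± 0.079) and Cspg4 (-0.42 ± 0.107), both pericyte markers, and neither was past the threshold with array medians subtracted or after a second quantile normalization. Notch3 also did not pass without FL replicate 1 (adjusted p = 0.0611) or LF replicate 3 (0.106), and Cspg4 without FL replicate 1 (0.0911), FL replicate 3 (0.0654) or LF replicate 2 (0.11). Of 11 endothelial genes 0 passed, also at an unadjusted p under 0.05.

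Other named genes that differed encode secreted, matrix and membrane proteins. Gp2, a relative of uromodulin, read 10.18, 9.27, 8.53 and 7.81 in FL kidneys, against 6.85, 6.66, 6.56 and 6.57 in LF kidneys, groups that did not overlap, with FL replicate 4 the lowest of its group. It was higher in FL by 2.29 ± 0.26, adjusted p = 5.51e-08, and by 2.07 ± 0.26 on the carrier. Tinag, a protein of the tubular basement membrane, was higher by 1.29 ± 0.193, and Tgm2, which cross-links matrix proteins, read 10.39, 10.32, 10.21 and 10.29 in FL kidneys, against 9.33, 9.16, 9.06 and 9.29 in LF kidneys, higher by 1.09 ± 0.131, adjusted p = 1.95e-07. Grik2, a glutamate receptor subunit, was higher by 1.5 ± 0.202. Timd2, a relative of Havcr1 that binds ferritin in the mouse, read 6.53, 6.10, 6.0 and 4.63 in FL kidneys, against 8.73, 8.16, 7.72 and 7.69 in LF kidneys, lower in FL at -2.26 ± 0.377, adjusted p = 0.00013, and -1.40 ± 0.377 on the carrier.

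Of 23 vasoactive and natriuretic genes 2 were higher and 0 lower (0.693% and 1.80% of all probe sets): Ptgds, a prostaglandin D synthase, and Guca2b, the natriuretic peptide uroguanylin. Ptgds read 8.22, 8.38, 8.07 and 8.06 in FL kidneys, against 7.24, 7.17, 7.37 and 7.22 in LF kidneys, higher by 0.93 ± 0.161, adjusted p = 0.000208, and on the carrier its difference was 0.18 ± 0.161 (adjusted p = 0.641). Guca2b read 6.75, 7.26, 6.37 and 6.48 in FL kidneys, against 5.83, 5.58, 6.17 and 5.86 in LF kidneys, higher by 0.86 ± 0.152, adjusted p = 0.00034. Of 25 matrix genes 1 was higher, the gelatinase Mmp9 (0.60 ± 0.16), and of 16 complement and coagulation genes 1 was lower, prothrombin F2 (-0.56 ± 0.154). Mmp9 did not pass without FL replicates 2 or 4 or LF replicates 1, 2 or 4 (adjusted p up to 0.187), nor F2 without FL replicates 2 or 4 or LF replicates 1, 2 or 4 (up to 0.227). With array weights neither passed (0.0988 for Mmp9 and 0.0713 for F2). Hba-a3, an alpha globin, read 5.61, 5.51, 6.16 and 6.29 in FL kidneys, against 7.67, 7.12, 8.14 and 6.86 in LF kidneys, lower in FL at -1.56 ± 0.335, adjusted p = 0.00424, and -2.0 ± 0.335 on the carrier. None of 4 erythroid and platelet markers passed, and their scaled mean signal lay between -0.140 and 0.222 in FL and between 0.00484 and 0.135 in LF.

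Of the 33 lists, 14 had no member past the threshold. Besides those named above these were the circadian clock (13 measured, 3 at an unadjusted p under 0.05), p53 and growth arrest (18, 4), Atf4-linked stress (15, 2), the cell cycle (15, 2), hypoxia (14, 0) and adipose and adrenal tissue (15, 0). Over all probe sets 1144 of 8797 had an unadjusted p under 0.05. The clock list had 1 member higher in FL and 6 lower on the carrier (0.796% and 2.27% of all probe sets).

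Much of the day 10 difference was shared with the other times. Of the 219 probe sets, 109 also passed on the carrier (49.8% of the day 10 calls and 40.4% of the 270 on the carrier, 3.07% of all probe sets), all in the same direction, and 207 had the same sign. With day 7, 87 were shared (39.7% of the day 10 calls and 40.3% of the 216 at day 7, 2.46% of all), again all in the same direction. The 270 of the carrier were 161 without its LF replicate 1 and 151 without its LF replicate 2, and the 216 of day 7 were 141 and 135 without the arrays of these numbers. At all 3 times 61 passed. At day 10 and at neither other time 84 passed, 21 higher in FL and 63 lower, and Havcr1 was not among them, since it passed at day 7 too. Clu, Serpina3n and Lcn2 likewise passed at day 7 already, while Cd44, Slfn4 and Acaa2 passed at day 10 alone. A gene that passed at 1 time and not at another was not thereby shown to differ between them: the test of the difference between carrier and day 10 passed for Lcn2 alone, and for 5 probe sets with the block, and that between day 7 and day 10 passed for the 8 probe sets given above, Slfn4 among them.

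F against L at day 10 gave 340 probe sets (3.86%), 73 higher in F (0.830%) and 267 lower (3.04%), a split that was 200 and 222 after a second quantile normalization and 222 and 214 with array medians subtracted. The count was 630 without F replicate 1 and 174 without F replicate 4. Of the 340, 96 also passed in FL against LF (43.8% of the FL and LF calls, 28.2% of the F and L calls), 94 with FL minus LF and F minus L of the same sign. The 2 of opposite sign were Ace and Slfn9, another Schlafen gene on chromosome 10, which was lower in FL at -0.96 ± 0.265, adjusted p = 0.0374, and stood at 1.18 ± 0.265, adjusted p = 0.00617 in F minus L. Akr1c2 (3.54 ± 0.249), RT1-CE16 (2.54 ± 0.245), Acsm5 (-2.47 ± 0.112) and Ces1e (-3.32 ± 0.216) had F minus L differences of the same sign as FL minus LF. That of Ces1e was further from 0 than its FL minus LF value of -1.99 ± 0.216, and whether the 2 differ was not tested. For the injury genes the values were unlike. Havcr1 read 7.37, 7.68, 5.44 and 7.00 in F kidneys, against 6.63, 4.56, 7.04 and 4.09 in L kidneys, a difference of 1.29 ± 0.542, adjusted p = 0.173, and Clu stood at 0.24 ± 0.212, adjusted p = 0.541, both above 0 where FL minus LF was below it. Lcn2 was -1.31 ± 0.205, adjusted p = 4.18e-05 in F minus L. Whether F minus L and FL minus LF differ for these genes was not tested.

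**Figure D5:**
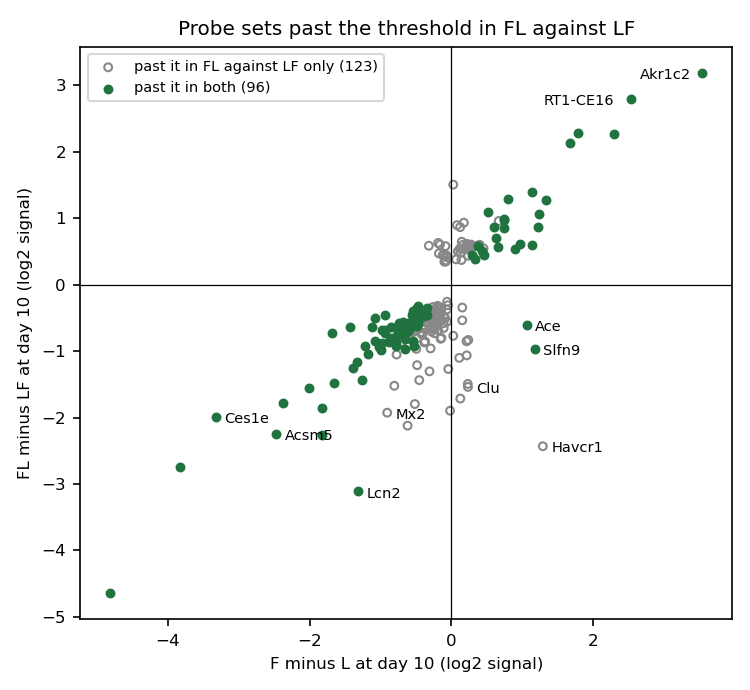
The 219 probe sets past the threshold in FL against LF at day 10, with F minus L (log2 signal, x axis) against FL minus LF (log2 signal, y axis). Filled points passed in both comparisons (96), and of these Ace and Slfn9 are the 2 with F minus L above 0 and FL minus LF below it.

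Among the 219, 25 probe sets carried no symbol or several. The largest difference of all was in a probe set with several symbols, 7220176, which read 4.85, 4.90, 5.46 and 4.97 in FL kidneys, against 9.54, 9.63, 10.06 and 9.52 in LF kidneys, -4.64 ± 0.454, adjusted p = 1.65e-09. Probe set 7330154, also with several symbols, was lower in FL at -2.74 ± 0.45, and probe set 7108040, with none, was higher by 2.13 ± 0.155. All 3 differed by like amounts on the carrier (-5.41, -2.79 and 2.18).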

How the data were processed

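The deposited values are log2 signals of 48 arrays. RMA and limma stand in the submitters' processing notes, with no version and no role. RMA subtracts background, quantile normalizes the arrays and summarises probes into probe sets. Per the labels, targets were sense strand, biotin labelled and depleted of ribosomal RNA. The genome build of the array is not given in the sources used here. Of 8797 probe sets, 7603 carried 1 gene symbol, 409 several and 785 none. Names came through the Entrez identifier from the RefSeq rat table (7584) or through the symbol (19). Spp1 had no probe set with 1 symbol. No arrays were identical.

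In R 4.3.3 with limma 3.58.1, the model held 1 mean for each of 12 groups over the 48 arrays, with 36 residual degrees of freedom and 3.69 prior ones. Each contrast was adjusted over the 8797 probe sets with Benjamini-Hochberg adjustment at 0.05. Replicate numbers share an array name stem of 12 arrays each, so the fit with the number as a block is given beside the one without it. Deviations of same-numbered FL and LF arrays at day 10 had correlations of 0.237, 0.0357, -0.0493 and 0.299, and for replicates 2 and 3 an array of another number correlated more (0.209 and 0.0763).

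Named were the 15 largest differences in each direction, up to 4 members of each of 33 lists (948 genes, 591 measured) by smallest p, and a fixed set of angiotensin, injury and interferon genes. The members and lists were chosen with earlier results of these data known. List members past the threshold that this rule did not name, the day 10 minus day 7 test, F against L, Slfn9, Cacng5, Hexim1 and Ifi27 were added after the values were seen.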

Additional observations from a re-analysis of the deposited data

Results flagged for a closer look

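Lcn2 differed in its change between carrier and day 10, by -2.28 (FL minus LF) in the test of the difference itself, as described above.

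The signals of named genes and the spread and median of the arrays gave 318 groups of 4 values. In 17 of them, all of named genes, 1 array lay far from the other 3. The groups share the same 8 arrays and are not independent, so the count was not set against chance. FL replicate 4 was the low array for Tmlhe (9.03, others 9.52 to 9.57), Cyp1a1 (5.70, others 6.66 to 6.83), Oas2 (3.34, others 3.54 to 3.55), Hadhb (8.56, others 9.13 to 9.24), Aldoa (8.99, others 9.24 to 9.29), Cd2ap (7.80, others 8.57 to 8.69) and Ptprc (5.57, others 6.40 to 6.53). Hadhb and Aldoa are enzymes of fatty acid oxidation and glycolysis, Cd2ap is a podocyte adaptor, and Ptprc is the shared surface marker of white blood cells.

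FL replicate 3 was the high array for A2m (3.44, others 3.16 to 3.19) and for Ctss, a lysosomal protease of macrophages (7.72, others 7.04 to 7.14). FL replicate 2 was high for the chemokine Ccl4 (6.15, others 5.12 to 5.25). In LF, replicate 1 was high for the complement gene C1qa (6.83, others 6.63 to 6.66), for Eci2 of fatty acid oxidation (9.71, others 9.46 to 9.50) and for Cyp51 of cholesterol synthesis (7.36, others 6.27 to 6.37). LF replicate 3 was high for Mmp9 (4.77, others 4.59 to 4.61) and low for Hmox1 (5.22, others 5.96 to 6.10). LF replicate 2 was high for Slc5a2 (10.05, others 9.80 to 9.82), and LF replicate 4 was low for the pericyte receptor Pdgfrb (8.05, others 8.20 to 8.21).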

How the results depend on the processing

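In FL against LF at day 10, 219 probe sets became 350 with the replicate block, 32 with only the arrays compared, 433 after a second quantile normalization, 361 with array medians subtracted and 456 with array spread as a covariate, and 136 to 208 without single arrays. On the carrier, 270 became 544 with the block, 561 with array weights, 525 after quantile normalization, 436 with medians subtracted and 513 with the spread, and 151 to 305 without single arrays (173 without FL replicate 2, 161 without LF replicate 1). At day 7, 216 became 356 with the block, 65 with only the arrays compared, 484, 395 and 564 under these scalings, and 135 to 245 without single arrays (143 without FL replicate 4, 141 without LF replicate 1). The difference in response, 1 probe set, became 5 with the block, 9 with array weights, 8, 6 and 8 under the scalings, and 1 to 5 without single arrays (5 without FL replicate 4 of day 10, 3 without FL replicate 4 of the carrier). Lcn2 kept its difference in response, -2.39 to -2.20, under each of these. F against L, 340, became 811 with the block, 67 with only its arrays, 661 with array weights and 174 to 630 without single arrays. Day 10 minus day 7, 8, became 2 with only its arrays and 2 with array weights, 28, 19 and 32 under the scalings, and 3 to 16 without single arrays. The cause of these shifts was not tested.

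Of 157 named genes 55 passed at day 10, and 14 of them did so under each alternative that tested them (Ifgga2l1 was not tested with the dimmest probe sets left out). Of the 41 that did not, all lost the call with only the 8 arrays, 21 of them there alone, and 20 without some single array. Leaving out FL replicate 4 ended 14 calls and leaving out LF replicate 1 ended 15. The block ended 0 and added 19, and no named gene turned its sign past the threshold. The number of arrays limits what could be called.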
